A study of Mus musculus with 10 samples.

Results

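Mitochondrial import and carrier genes were taken as every gene whose symbol in the deposited rate table starts with Tomm, Timm or Slc25a followed by a digit, which gave 49 of 8590 genes: 20 genes of the import machinery and 29 genes named for solute carrier family 25. The study compared primary mouse cortical neurons of the FVB.129P2-Pde6b+ Tyrc-ch/AntJ background that were wild type or Fmr1-KO, both prepared from embryonic day 18 cortices and kept for 14 days in vitro. Fmr1 encodes FMRP, an RNA-binding protein whose loss causes fragile X syndrome. Cultures of each genotype received 200 µM 5-ethynyl uridine, a nucleoside that newly made RNA takes up, for 20 min or for 60 min, and labelled RNA from flies and RNA from yeast (10% w/w each) were added to every sample as spike-ins. The 10 samples formed 6 groups (labelled RNA, input RNA and a pull-down without label in each genotype, and no other treatment), and the rates used here came from the 4 labelled libraries, 1 for each genotype and labelling time. A synthesis rate, a processing rate (removal of introns from premature RNA) and a degradation rate (loss of mature RNA) were listed per gene and library, in a time unit not given in the sources used here. The labelling times stood as the 2 replicates of a genotype; nothing in the labels says that they came from separate cultures or animals, so p-values measured only the spread between these libraries, and in bulk RNA fewer cells of a type and less RNA per cell cannot be told apart.

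Nearly all mitochondrial proteins are encoded in the nucleus and imported. The TOM complex of the outer membrane recognises and passes the precursors, the TIM23 complex of the inner membrane takes those with a presequence, and the small TIM chaperones hand carrier proteins to the TIM22 complex, which inserts them into the inner membrane. Carriers of family 25 are the main clients of that route and move nucleotides, phosphate, amino acids, dicarboxylates and cofactors across the inner membrane. Neurons depend on them for ATP supply at synapses and for glutamate and aspartate handling.

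Rates of the targeted gene and of the marker lists were read first. Fmr1 had degradation rates of 0.0774 and 0.0672 in the wild-type libraries (20 and 60 min) and 2.58 and 2.66 in the Fmr1-KO libraries, and its ratio of synthesis to degradation rate stood at 10.5 (20 min) and 10.3 (60 min) in wild type but at 0.80 and 0.59 in Fmr1-KO. Its synthesis rate was not lower in Fmr1-KO (0.81 and 0.69 against 2.06 and 1.56), and the labels do not give the deleted part of the gene. The rate table held 3 neuron, 4 astrocyte, 5 oligodendrocyte lineage and 0 microglia genes of the marker lists; 1 gene of each of the first 3 lists had a degradation rate in all 4 libraries and none of the 3 passed the test of degradation rates without labelling time in the fit. With labelling time as a block the neuron marker Rbfox3 passed, at 0.0807 and 0.0361 in wild type and 0.198 and 0.155 in Fmr1-KO, without overlap (change 1.70, limma adjusted p = 0.0781 without and 0.0241 with the block). It did not pass with the block and centring (limma adjusted p = 0.126), and with Fmr1-KO rates recomputed from 1 ratio per gene its change was -0.27. Gad2, Aqp4, Pdgfra, Cspg4 and Sox10 had degradation rates in wild type only and Sox9 in Fmr1-KO only. The table holds rates and not levels, so the part of cell composition in the results was not tested.

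Promoters of 39 of the 49 genes were matched by symbol in RefSeq (GRCm38.p6; 250 bases before to 50 after the start). Promoters of 4 genes to which the results return are shown: Tomm20, the presequence receptor of TOM, had the largest fall in degradation rate, Slc25a18, a glutamate carrier, had the largest rise, Tomm22, the central TOM receptor, had a 10.4-fold higher processing rate that passed with labelling time as a block but not in the fit of all 4 libraries without it, and Timm10, a small TIM chaperone whose promoter held the most motif matches of the 4, had a higher degradation rate. Capitals mark matches on either strand to GCGCA and GCGC with any 1 base between them (the NRF1 motif), CCGGAAG (the ETS motif that GABP binds), CACGTG (E-box) and TCAAGGTCA (ERR motif); matches on opposite strands can share bases. The 4 regions are chr8:126945872-126946171 (minus strand) for Tomm20, chr6:120773518-120773817 (plus strand) for Slc25a18, chr15:79670618-79670917 (plus strand) for Tomm22 and chr2:84826771-84827070 (plus strand) for Timm10.
Tomm20: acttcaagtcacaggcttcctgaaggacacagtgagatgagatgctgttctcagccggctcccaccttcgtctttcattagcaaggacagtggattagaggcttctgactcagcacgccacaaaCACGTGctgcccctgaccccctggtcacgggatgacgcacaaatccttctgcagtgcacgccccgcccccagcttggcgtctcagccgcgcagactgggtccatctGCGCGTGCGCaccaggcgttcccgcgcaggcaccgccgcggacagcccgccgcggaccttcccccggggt
Slc25a18: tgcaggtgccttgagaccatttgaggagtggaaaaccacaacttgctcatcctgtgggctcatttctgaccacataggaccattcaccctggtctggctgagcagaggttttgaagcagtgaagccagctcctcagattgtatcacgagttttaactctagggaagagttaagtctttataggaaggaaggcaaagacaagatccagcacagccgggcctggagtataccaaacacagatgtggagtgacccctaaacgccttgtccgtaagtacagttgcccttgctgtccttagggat
Tomm22: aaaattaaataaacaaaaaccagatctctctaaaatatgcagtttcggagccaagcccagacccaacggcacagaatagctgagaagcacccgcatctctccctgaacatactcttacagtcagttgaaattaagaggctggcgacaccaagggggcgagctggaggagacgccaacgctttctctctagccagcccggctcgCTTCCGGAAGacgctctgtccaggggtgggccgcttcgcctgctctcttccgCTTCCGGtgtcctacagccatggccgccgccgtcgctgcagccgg
Timm10: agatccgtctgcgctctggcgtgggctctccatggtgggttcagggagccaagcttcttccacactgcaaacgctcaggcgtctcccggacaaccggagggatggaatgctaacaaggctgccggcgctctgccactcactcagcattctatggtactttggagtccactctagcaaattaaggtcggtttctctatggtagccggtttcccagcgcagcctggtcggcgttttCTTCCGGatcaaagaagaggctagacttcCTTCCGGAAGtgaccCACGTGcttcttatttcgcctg

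The Tomm20 promoter held 1 NRF1 match and 1 E-box, Tomm22 held 3 ETS matches, Timm10 held 3 ETS matches and 1 E-box, and these letters were not in the Slc25a18 window. Matches were counted per gene, a gene counting when any of its promoters held the letters. The ETS letters stood in 10 of the 39 genes (25.6%), against 21.9% of 6677 genes of the rate table with a promoter. The E-box stood in 8 of 39 genes (20.5%, against 12.5%) and the NRF1 letters in 2 of 39, Timm8b and Tomm20 (5.13%, against 12.5%). Counted per promoter, which is another unit, the shares over all 32851 promoters were 8.86% for ETS, 7.15% for the E-box and 4.60% for NRF1. Matches describe letters only. Slc25a51, Slc25a37, Slc25a32, Tomm40l, Slc25a44, Slc25a27, Tomm7, Slc25a46 and Slc25a26 were among the genes with no entry.

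Not every gene had a rate in each library. Degradation rates were listed for 46 of the 49 genes in each wild-type library, for 38 in the 20-min Fmr1-KO library and for 37 in the 60-min one, and for 36 in all 4 libraries. Slc25a28, a mitoferrin that brings iron into the matrix, Timm23, the channel subunit of TIM23, and Tomm40l had no rate in any library. Slc25a15 (ornithine carrier), Slc25a20 (acylcarnitine carrier), Slc25a40, Slc25a53, Timm44 (which tethers the import motor to TIM23), Timm9 and Tomm7 had a degradation rate in both wild-type libraries and in neither Fmr1-KO library. These 7 of 46 genes (15.2%) compare with 1546 of 7914 genes (19.5%) in the whole table. Slc25a27, Slc25a30 and Timm10b had a rate in 1 Fmr1-KO library; Slc25a30 stood at 0.574 and 1.08 in wild type and at 0.0305 in the 60-min Fmr1-KO library. It was left out of the fit, which took genes with a rate in all 4 libraries, and in the authors' deposited table its log2 change is -4.14 with an adjusted p of 0.0134.

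The first question was how fast the mature transcripts of these genes were lost without FMRP. Degradation rates of 12 of the 36 tested genes rose in Fmr1-KO and those of Tomm20 and Timm22 fell (limma on log2 rates, Benjamini-Hochberg adjusted p under 0.05 over all genes tested). The risers included carriers (Slc25a18, Slc25a10, Slc25a17, Slc25a29, Slc25a39, Slc25a46) and import genes (Tomm40, Timm17b, Timm10, Tomm34, Timm50), with changes of 1.37 to 4.82 on the log2 scale. Of all 5716 genes tested, 23.1% passed in either direction, 20.5% higher and 2.57% lower, so the 14 of 36 calls stand against a background in which rises were common. The median change was 0.83 over the 36 genes and 0.65 over all genes, and 26 of the 36 genes had a change above 0. Both Fmr1-KO libraries lay above both wild-type libraries for 20 of the 36 genes (52.6% of all genes tested) and below for Timm22, Tomm20 and Tomm70a (16.5%). When labelling time entered the fit as a block, 19 genes passed (48% of all genes), the added ones being Slc25a14, Slc25a26, Slc25a38, Timm17a and Tomm22, which lay higher in Fmr1-KO. In the authors' deposited table of degradation rates 18 of 38 of these genes have an adjusted p under 0.05 (36.3% of 6182 genes), among them each of the 14 genes but Tomm20, which has no value there. The calls depended on scaling and on single libraries. After centring each library on its median, which took off 0.86, the 12 risers stayed above 0 and the 2 fallers below it, but of the 36 genes only Slc25a18 and Tomm20 passed (1.61% of all genes), and the median over the 36 genes was -0.03. Quantile normalization left 4 calls (10.4% of all genes), and 14 genes (36.2%) passed when centring was added to the block, with 7 higher in Fmr1-KO and 7 lower, of which 9 were among the 14 above and Slc25a12, Slc25a33, Slc25a37, Slc25a44 and Timm13 were further genes that lay lower. With Fmr1-KO rates recomputed from 1 ratio per gene, as given with the ratios of rates, 0 of the 36 genes passed (0.0353% of 5670 genes). Without the 60-min wild-type library 0 genes passed (0.0175% of all genes) and without the 20-min one 9 (19.5%). Without the 60-min Fmr1-KO library 2 passed (2.26%) and without the 20-min one 3 (2.62%).

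**Figure D1:**
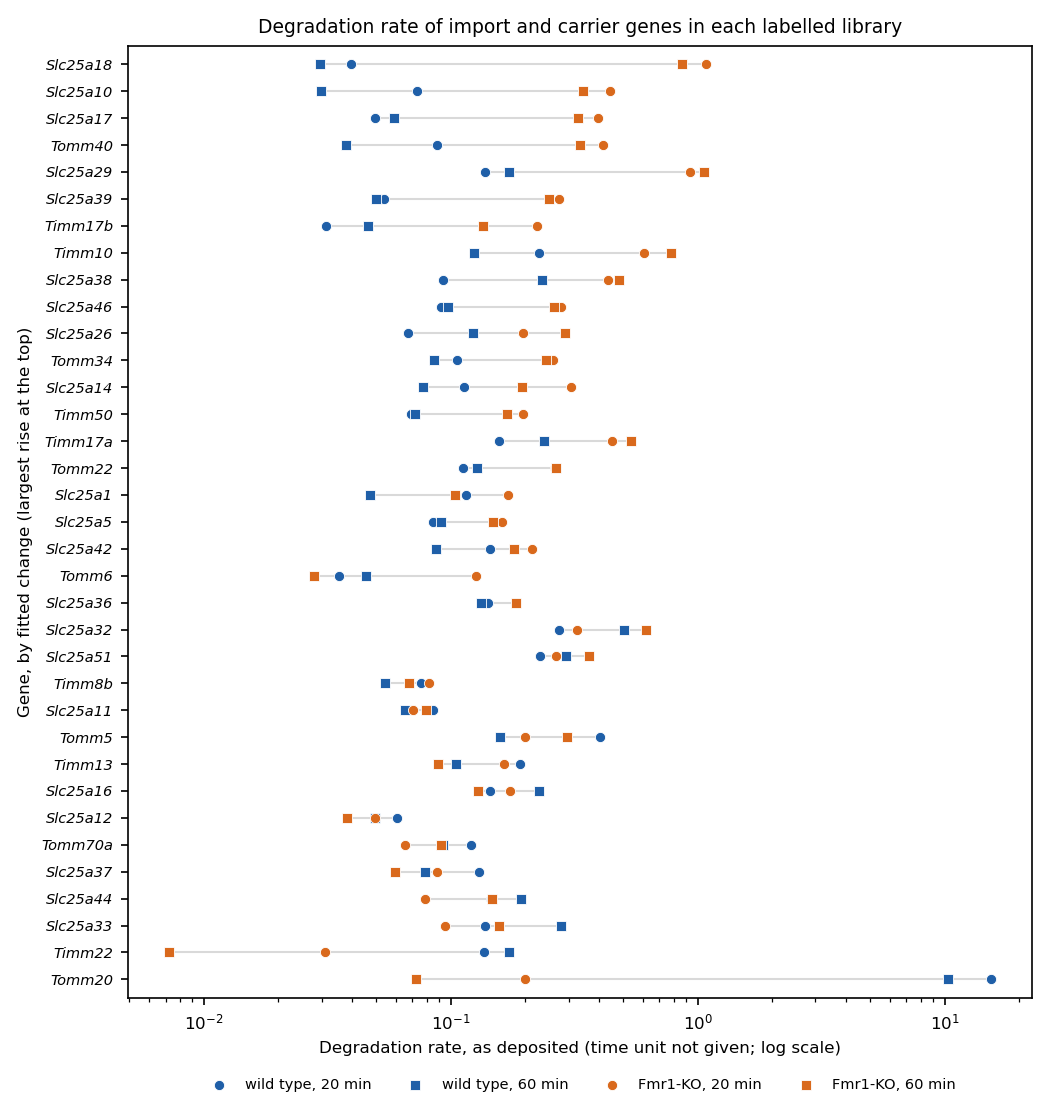
Degradation rate (x axis, log scale, time unit not given) of 35 import and carrier genes with a rate in all 4 libraries, 1 gene a line, ordered by fitted change. Points are single libraries, blue for wild type and orange for Fmr1-KO, circles for 20 min and squares for 60 min; Slc25a18 at the top rose from 0.0395 and 0.0296 to 1.08 and 0.866, and Tomm20 at the bottom fell from 15.4 and 10.3 to 0.199 and 0.0726.

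Among TOM genes, Tomm40 and Tomm34 rose and Tomm20 fell; the other 4 tested (Tomm22, Tomm5, Tomm6, Tomm70a) did not pass. Tomm20 had degradation rates of 15.4 (20 min) and 10.3 (60 min) in wild type and of 0.199 and 0.0726 in Fmr1-KO. Both Fmr1-KO values lay far below both wild-type values, a change of -6.71 (SE 0.61, limma adjusted p = 0.0235), or 105-fold lower. The wild-type values were the extreme ones, since the median over the 36 genes was 0.113 in the 20-min and 0.0924 in the 60-min wild-type library. Tomm40, the pore of TOM, stood at 0.0876 and 0.0377 in wild type and at 0.414 and 0.334 in Fmr1-KO, without overlap, a change of 2.69 (SE 0.53, adjusted p = 0.0351, limma). Tomm34, a cytosolic co-chaperone of precursors, went from 0.106 and 0.0859 to 0.260 and 0.244 (change 1.40, SE 0.33, limma adjusted p = 0.0487), and its change was -0.07 with Fmr1-KO rates recomputed from 1 ratio per gene. Tomm22 stood at 0.113 and 0.128 against 0.265 and 0.268, which did not overlap (change 1.15, limma adjusted p = 0.0648 without and 0.0342 with the block). Its change was 0.03 with Fmr1-KO rates recomputed from 1 ratio per gene. The small subunits Tomm5 and Tomm6 had changes of -0.05 and 0.57, with 95% intervals of -1.62 to 1.52 and -1.61 to 2.75, and each moved in opposite directions at 20 and 60 min. Tomm70a, the receptor for carrier precursors, had a change of -0.46 (interval -1.46 to 0.55).

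In the TIM23 complex, Timm17b and Timm50 rose, and Timm17a passed with the block but not without it. Timm17b, a channel-associated subunit, stood at 0.0312 and 0.0463 in wild type and at 0.224 and 0.135 in Fmr1-KO, a change of 2.19 (SE 0.44, limma adjusted p = 0.0367). Timm50, the receptor that faces the intermembrane space, stood at 0.0689 and 0.0718 against 0.196 and 0.169, a change of 1.37 (SE 0.32, limma adjusted p = 0.0479). Its libraries lay close within each genotype, but the wild-type pair shares 1 ratio of synthesis to degradation. The closeness of that pair is therefore that of its synthesis rates. Timm17a, the paralog of Timm17b, had 0.156 and 0.239 against 0.451 and 0.538 (change 1.35, limma adjusted p = 0.0687, with the block 0.0271).

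In the TIM22 route, Timm22, the inserting channel, fell and its chaperone Timm10 rose in the deposited rates, and both calls were lost after centring and with Fmr1-KO rates recomputed from 1 ratio per gene (changes of -0.09 and 0.45). Timm22 stood at 0.136 and 0.173 in wild type and at 0.0309 and 0.00723 in Fmr1-KO. The groups did not overlap, yet the Fmr1-KO libraries lay further apart from each other than the wild-type libraries did, and the change was -3.36 (SE 0.78, limma adjusted p = 0.0479). Timm10, which chaperones carriers through the intermembrane space, stood at 0.227 and 0.124 against 0.608 and 0.778, a change of 2.03 (SE 0.45, limma adjusted p = 0.0433). The small TIM genes Timm13 and Timm8b had changes of -0.22 (interval -1.62 to 1.18) and 0.21 (interval -0.77 to 1.19). Rates of the 2 genes overlapped between genotypes.

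Among amino acid carriers, Slc25a18 and Slc25a29 rose. Slc25a18, which carries glutamate with a proton, stood at 0.0395 and 0.0296 in wild type and at 1.08 and 0.866 in Fmr1-KO. The change of 4.82 (SE 0.36, limma adjusted p = 0.0235) was 28.3-fold and the largest rise among the 36 genes. Slc25a29, a carrier of basic amino acids, stood at 0.138 and 0.172 against 0.931 and 1.06, a change of 2.69 (SE 0.33, limma adjusted p = 0.0235). Slc25a38 (glycine) and Slc25a26 (S-adenosylmethionine) had changes of 1.63 and 1.40 and passed with the block (limma adjusted p = 0.0372 and 0.0246) but not without it. Slc25a12, the aspartate/glutamate carrier of the malate-aspartate shuttle in brain, stood at 0.0608 and 0.0493 against 0.0494 and 0.0380, a change of -0.34 (interval -1.28 to 0.61), and Slc25a44, a branched-chain amino acid carrier, had a change of -0.64.

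Among nucleotide and phosphate carriers, Slc25a17 rose, and Slc25a5, Slc25a33, Slc25a36, Slc25a42 and Slc25a51 did not pass. Slc25a17, which resides in the peroxisome membrane and carries coenzyme A and nucleotides, stood at 0.0492 and 0.0588 in wild type and at 0.394 and 0.328 in Fmr1-KO (change 2.74, SE 0.33, limma adjusted p = 0.0235). Slc25a5, the ADP/ATP carrier that exports ATP, stood at 0.0847 and 0.0916 against 0.161 and 0.149, without overlap, a change of 0.81 (interval -0.04 to 1.66, limma adjusted p = 0.126). With Fmr1-KO rates recomputed from 1 ratio per gene the change of Slc25a5 was -0.08. Slc25a33, a pyrimidine nucleotide carrier, had a change of -0.68 (interval -2.10 to 0.73).

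In the remaining roles 1 gene each rose. Slc25a10, the dicarboxylate carrier, stood at 0.0728 and 0.0300 in wild type and at 0.441 and 0.344 in Fmr1-KO (change 3.06, SE 0.55, limma adjusted p = 0.0296), while the citrate carrier Slc25a1 and the oxoglutarate carrier Slc25a11 had changes of 0.85 and 0.01 that did not pass. Slc25a39, which takes glutathione into mitochondria, stood at 0.0535 and 0.05 against 0.274 and 0.251 (change 2.34, SE 0.32, limma adjusted p = 0.0235). Slc25a46, an outer membrane protein that acts in mitochondrial dynamics, stood at 0.0914 and 0.0979 against 0.281 and 0.262 (change 1.52, SE 0.32, limma adjusted p = 0.0383). The mitoferrin Slc25a37 had a change of -0.48 (interval -1.67 to 0.70).

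**Figure D2:**
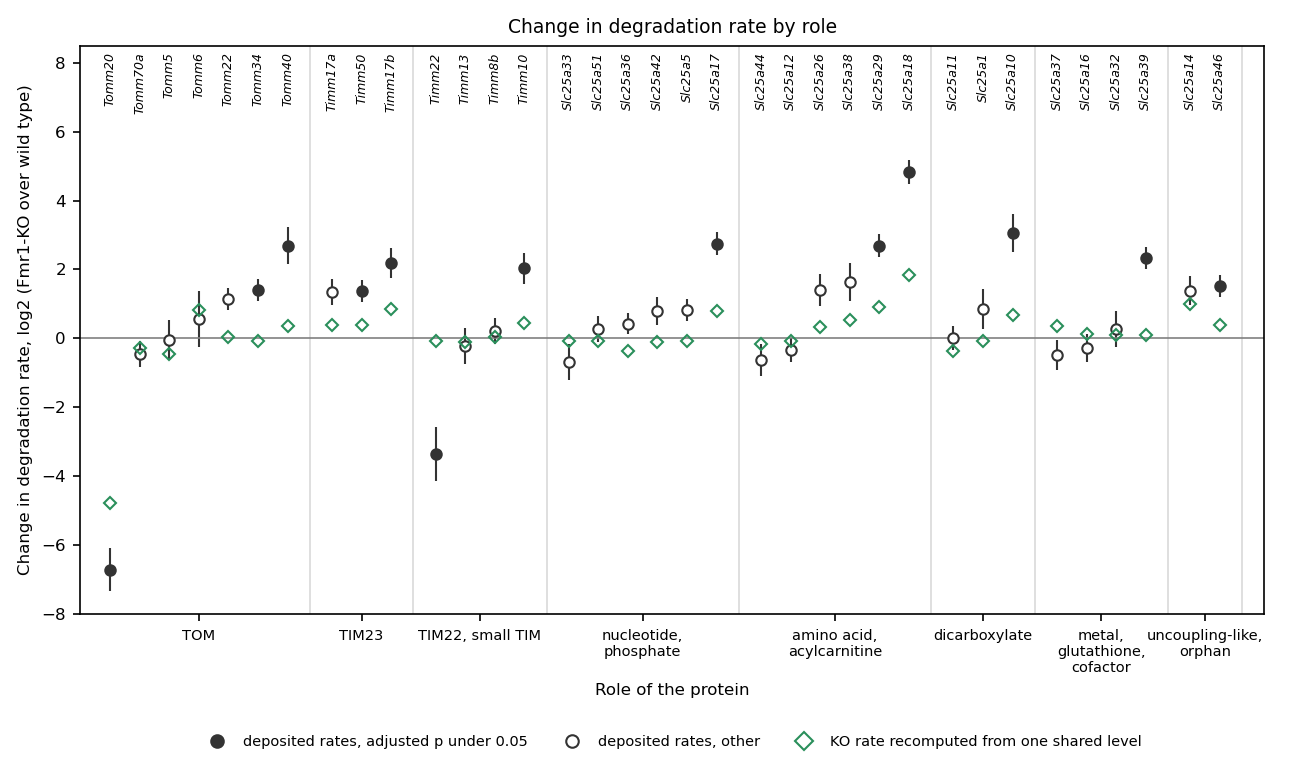
Change in degradation rate (y axis, log2 of Fmr1-KO over wild type) of 35 tested genes by role of the protein. Circles are fitted changes of the deposited rates with bars of 1 SE, filled where the adjusted p is under 0.05, and diamonds are changes after both Fmr1-KO libraries were given 1 shared ratio of synthesis to degradation; 13 circles are filled and the diamonds of these 13 genes lie nearer 0 than their circles, at -4.79 for Tomm20, 1.85 for Slc25a18, 0.36 for Tomm40 and -0.09 for Timm22.

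Partner genes outside the name rule gave a comparison from the same table. The list mixed import factors (such as matrix chaperones, processing peptidases and sorting factors) with channels and transporters such as Mcu, Vdac1 and Mpc1. Its values are therefore not those of import factors alone. Of 34 listed partners, 29 were in the table and 14 could be tested. Their median change was 0.23, and 1 of the 14 passed, against 23.1% of all genes: Mcu, the calcium uniporter pore, with a change of 1.34 (limma adjusted p = 0.049). With the block 4 of 14 passed, against 48%, with Mcu, Mtx1 and Oxa1l higher and Hspa9 lower. With the block and centring 3 passed, against 36.2%, namely Grpel1, Grpel2 and Hspa9, each lower. After centring 0 passed, against 1.61%, and the median was -0.63, against -0.20 over all genes. With Fmr1-KO rates recomputed from 1 ratio per gene 0 of 14 passed in limma, against 0.0353%, and the change of Mcu was 0.03. Differences between these genes and the import and carrier genes were not tested.

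Synthesis rates were then compared to see whether production of the same transcripts moved. None of the 36 tested genes passed in limma, against 0% of all genes, and 0 had an unadjusted p under 0.05 (18 of 5794 genes, 0.311%, overall). The median change was 0.06. Tomm20 had synthesis rates of 4.23 and 2.83 in wild type and of 3.64 and 2.76 in Fmr1-KO, a change of -0.13 (interval -1.24 to 0.99), so its synthesis values overlapped where its degradation rates were far apart. Slc25a18 had the largest change, 0.98 (interval -1.11 to 3.08): wild type stood at 0.337 and 0.252 and Fmr1-KO at 1.27 and 0.260, with only the 20-min Fmr1-KO library high. Tomm5 had the largest change downward, -0.56 (interval -2.12 to 1.00). Tomm22 was at 2.25 and 2.56 against 2.67 and 2.75. It was among 4 of the 36 genes in which both Fmr1-KO libraries lay above both wild-type ones (8.92% of all genes), and in 3 they lay below (9.2%). Intervals were wide: that of Slc25a18 includes a change of 2-fold in either direction.

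Processing rates were compared to ask whether introns left the premature RNA at another pace. In the fit without labelling time 0 of 34 tested genes passed (0% of 5082 genes in limma), 11 had an unadjusted p under 0.05 against 15.4% of all genes, and the authors' deposited table of processing rates also has 0% of genes under 0.05. With labelling time as a block 15 of 34 genes passed, 9 higher and 6 lower, against 25.6% of all genes, of which 6.26% were higher and 19.3% lower. Processing rates of Tomm22, Slc25a29, Slc25a10 and Timm13 were among those furthest above wild type. Those of Slc25a38, Slc25a39 and Timm50 lay furthest below. The median change was -0.12 against -0.36 over all genes, and it turned to 0.23 after centring. With the block and centring 13 genes passed (13.5% of all genes). Both Fmr1-KO libraries lay above both wild-type libraries for 10 of 34 genes (11.5% of all genes tested) and below for 12 (35.1%).

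Tomm22 had processing rates of 1.49 and 1.69 in wild type and of 16.4 and 16.7 in Fmr1-KO. Its 4 values form a pair of tight, distant groups, and the change was 3.38 (SE 0.40, 10.4-fold), with a limma adjusted p of 0.10 without and 0.00752 with the block. The wild-type libraries share 1 ratio of synthesis to processing, so the closeness of their values is that of the synthesis rates and is no replicate agreement. In the authors' deposited table Tomm22 is at rank 11 by p among 5930 genes in the processing comparison, with a log2 change of 3.39 and an adjusted p of 0.0863. Slc25a29 stood at 12.3 and 15.3 against 49.6 and 75.1 (change 2.16, block adjusted p = 0.00956 in limma). Slc25a10 stood at 2.79 and 1.15 against 11.7 and 4.54, and Timm13 at 2.21 and 1.22 against 6.89 and 4.55. In these 4 genes both Fmr1-KO libraries were above both wild-type ones. Tomm20, Slc25a5, Timm17a and Slc25a1 were also higher with the block, with changes of 1.44, 1.36, 1.28 and 1.5.

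Slc25a38, the glycine carrier used for haem synthesis, stood at 41.3 and 104 in wild type and at 11.6 and 14.6 in Fmr1-KO (change -2.33, SE 0.57, block adjusted p = 0.0133 in limma). Slc25a39 stood at 17.2 and 16.1 against 4.88 and 2.96 (change -2.13, SE 0.45, block adjusted p = 0.0119 in limma), and Timm50 at 13.5 and 14.0 against 5.10 and 3.61 (change -1.68, block adjusted p = 0.0168 in limma). Slc25a32, a flavin and folate carrier, Slc25a14 and Slc25a51, the NAD carrier, were also lower with the block, with changes of -1.33, -0.95 and -0.98. Degradation and processing did not move as 1 pattern among these genes. Slc25a29 and Slc25a10 had higher values of both rates in Fmr1-KO, whereas Slc25a39 and Timm50 had higher degradation and lower processing rates. Slc25a18 had the largest rise in degradation and a processing change of 0.18 (interval -1.96 to 2.32), with Fmr1-KO rates of 12.5 and 2.25 on either side of the wild-type rates of 5.41 and 4.05.

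**Figure D3:**
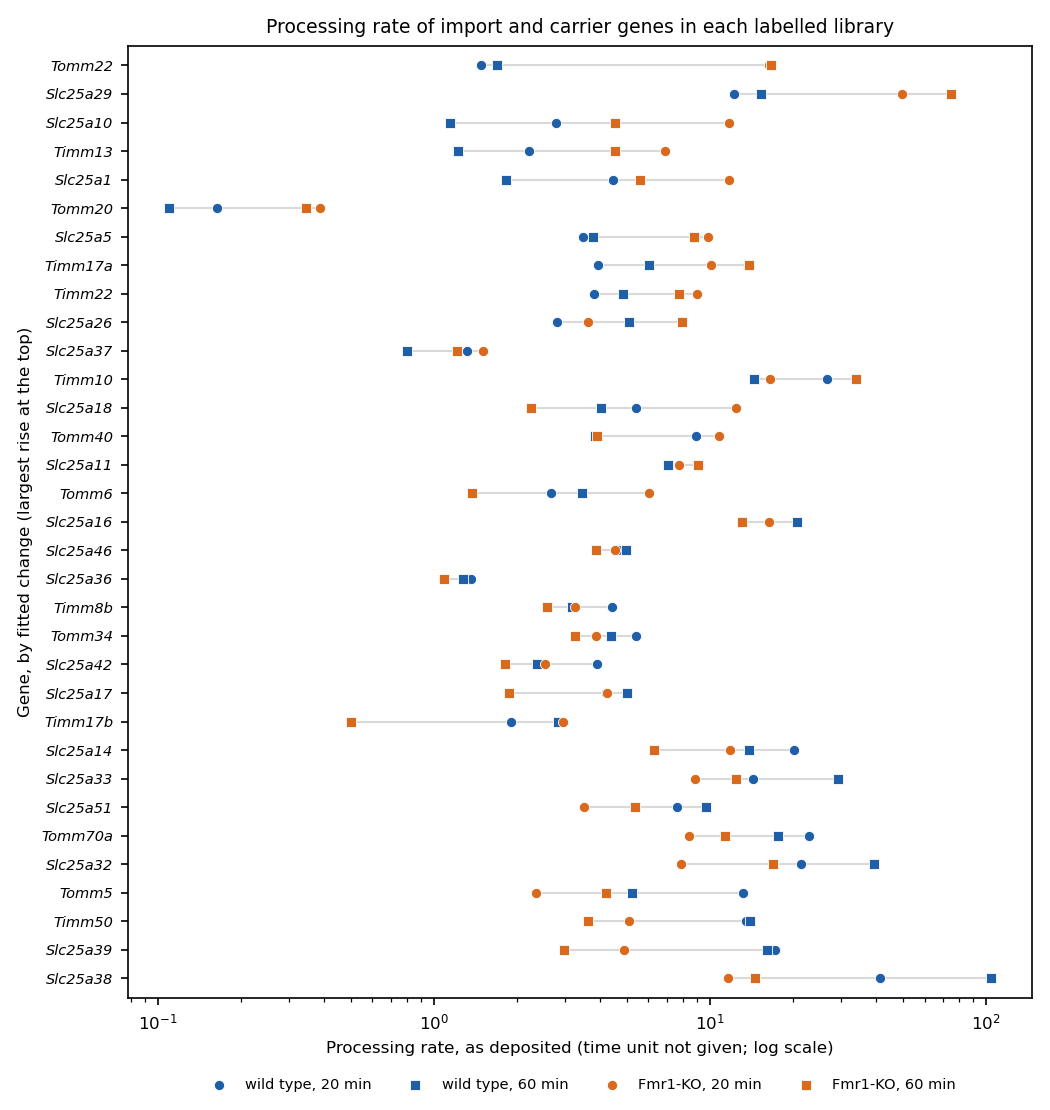
Processing rate (x axis, log scale, time unit not given) of 33 import and carrier genes with a rate in all 4 libraries, 1 gene a line, ordered by fitted change. Points are single libraries, blue for wild type and orange for Fmr1-KO, circles for 20 min and squares for 60 min; Tomm22 stands apart at the top, at 1.49 and 1.69 against 16.4 and 16.7.

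Ratios of the rates were compared within each genotype. In the steady state of this kind of model the ratio of synthesis to degradation is the level of mature RNA and the ratio of synthesis to processing the level of premature RNA. The ratio to degradation was equal between the 2 wild-type libraries (within 0.001 on the log2 scale) in 42 of 46 genes and equal between the 2 Fmr1-KO libraries in 0 of 36, against 93.4% and 0.271% of genes in the whole table. The ratio to processing was equal in 42 of 42 genes in wild type and in 0 of 34 in Fmr1-KO, against 100% and 5.81% in the whole table. Where the ratio is equal, the wild-type rates of a gene at 20 and 60 min are not independent, and the spread between them is that of the synthesis rate. The exceptions for degradation were Slc25a12, Slc25a15, Slc25a40 and Slc25a44. The ratio of synthesis to degradation had a median change of -0.99 over the 36 genes, against -0.64 over the whole table.

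Tomm20 had a ratio of synthesis to degradation of 0.274 in both wild-type libraries, and of 18.3 and 38.0 in Fmr1-KO. Its ratio of synthesis to processing went the other way, from 25.8 in both wild-type libraries to 9.43 and 8.02. The sum of the ratios was 26.0 in wild type and 27.7 and 46.0 in Fmr1-KO. Among the 36 genes Tomm20 had the largest rise in the ratio to degradation, 6.59 on the log2 scale, where the largest over the whole table was 8.22. In the wild-type libraries the ratio to processing of Tomm20 exceeds its ratio to degradation. In Timm22 the ratio to degradation was 5.2 in both wild-type libraries and 29.9 and 108 in Fmr1-KO, and Slc25a18 stood at 8.53 against 1.18 and 0.30.

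**Figure D4:**
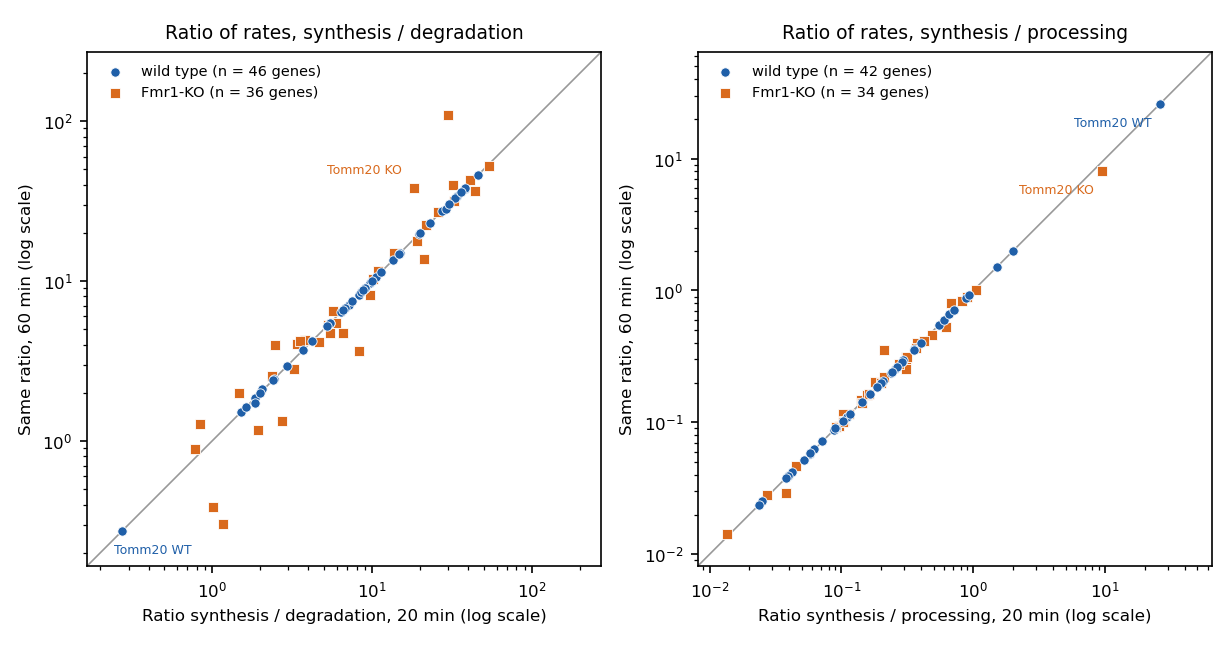
Ratio of synthesis to degradation (left) and of synthesis to processing (right) at 20 min (x axis) against 60 min (y axis), log scales, 1 point per gene and genotype, with the line of equality. Wild-type points (blue) lie on the line in 42 of 46 and 42 of 42 genes, Fmr1-KO points (orange) scatter about it, and Tomm20 is at 0.274 in wild type and at 18.3 and 38.0 in Fmr1-KO on the left.

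Because the wild-type libraries share a ratio and the Fmr1-KO libraries do not, the Fmr1-KO rates were also recomputed from 1 ratio per gene solved over both Fmr1-KO libraries, an alternative chosen after the data were seen. This ratio was the difference in synthesis rate between the Fmr1-KO libraries over their difference in degradation (or processing) rate. It is not a mean of the deposited Fmr1-KO ratios and can lie outside both. For degradation it was 6.96 in Tomm20, 4.67 in Slc25a18 and 5.89 in Timm22, outside both Fmr1-KO ratios given above for each gene. The sources used here do not give whether the authors' model ran with the same settings in both genotypes, so genotype and model setting cannot be told apart in these rates. As for degradation, 0 genes passed in limma for processing, of 34 (0% of 5074 genes). The median degradation change over the 36 genes was then 0.10. Tomm20 went from -6.71 to -4.79 (limma adjusted p = 0.0885), Slc25a18 from 4.82 to 1.85 and Timm22 from -3.36 to -0.09. Of the other carriers that had passed, Slc25a10 was at 0.68, Slc25a17 at 0.79, Slc25a29 at 0.91, Slc25a39 at 0.10 and Slc25a46 at 0.37. Of the import genes, Tomm40 was at 0.36, Timm17b at 0.84, Timm10 at 0.45, Timm50 at 0.38 and Tomm34 at -0.07. The processing change of Tomm22 was 2.79, that of Slc25a29 2.09, and that of Tomm20 was 0.17.

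Import genes were shorter than carriers. Taken from GENCODE M21 (GRCm38), the coding sequence had a median of 474 bases in the 20 import genes, 954 bases in the 29 carrier genes, which share a common fold of repeated modules, and 1455 bases in 8320 genes of the table. Import genes had a median of 4.5 introns and carriers 7, against 8. Across genes, wild-type degradation rates were lower in genes with more introns, with a Spearman rho of -0.46 over 36 genes and -0.45 over 5555 genes. In Fmr1-KO the same rho was 0.12 over the 36 genes and -0.25 over all. The degradation change went with transcript GC content, with a rho of 0.40 over the 36 genes and 0.31 over all genes. These points share libraries and base composition, and genes are not independent replicates.

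Several of the genes named above share runs of coding sequence with other gene models or have overlapping neighbours, and the sources used here do not say whether counting used strand. Tomm20 (chr8:126930667-126945844, minus strand) shares 73.6% of its coding sequence, in runs of 40 bases, with 1 pseudogene, and the small gene Gm26397 lies within it on the same strand. Tomm22 (chr15:79670861-79673400, plus strand) shares 28.2% with 1 pseudogene. Slc25a18 (chr6:120773578-120794336, plus strand) overlaps Atp6v1e1 on the opposite strand. Among the genes that passed for degradation, Tomm34, Tomm40, Timm17b, Slc25a10 and Slc25a46 also overlap a gene on the opposite strand. Slc25a39 overlaps Mir6930 on the same strand. Timm13, Tomm70a and Slc25a11 are among further genes with a neighbour on the opposite strand. Slc25a5, Slc25a36, Slc25a40, Timm17a and Timm23 also have copies that share at least 25% of the coding sequence. Rates of these genes are uncertain to that extent, and the part of copies and neighbours in the changes was not tested.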

How the data were processed

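Libraries were made from RNA labelled with 5-ethynyl uridine in cortical neurons, and the sources used here name cutadapt, TopHat2, HISAT2 and Bowtie2 and the mm10, dm6 and sacCer3 builds, per the submitters' processing notes, with no role or order. The deposited files hold synthesis, processing and degradation rates per gene and library, and the authors' deposited comparison tables hold log2 fold changes with p-values and adjusted p-values, a score per gene (a moderated statistic and its log odds) and the mean log2 rate. Read totals are not in these tables, so the depth of each library is unknown and counting intervals cannot be had.

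From the rates, genes with a rate above 0 in all 4 labelled libraries were fitted on the log2 scale with limma 3.58.1 in R 4.3.3 (no pseudocount, genotype as the only term, two-sided moderated test, Benjamini-Hochberg adjustment over all genes tested, threshold 0.05), after a check on simulated data; this needs a rate in every library, so genes lost in Fmr1-KO were not tested. A fold is the ratio of geometric means. Samples of a labelling time were paired across genotypes by the labels, and the differences between 60 and 20 min correlated between genotypes over genes (rho 0.652 in degradation rates and 0.735 in synthesis and in processing rates), so labelling time as a block was the alternative printed where it changes a call. Tables were handled in Python 3.11.15 with pandas 2.3.3.

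1 gene is counted among the members but is not reported here. The members and lists were chosen with earlier results of these data known. Genes were named when they passed in any rate, were among the 5 largest rises or falls of a rate, or belonged to the import groups or to the ADP/ATP, phosphate, aspartate/glutamate and mitoferrin carriers; Mcu was named as a partner that passed, and other genes, among them those that passed with the block but not without it, were named after their values were seen. Alternatives were centring, quantile normalization, a pseudocount at the 10th percentile, genes under the 25th percentile of the mean rate left out, a variance trend, a threshold of 0.01, the block with and without centring, each library left out, the authors' deposited tables and Fmr1-KO rates from 1 solved ratio. Promoters and gene structures were read from RefSeq GRCm38.p6 and GENCODE M21.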

Additional observations from a re-analysis of the deposited data

Results flagged for a closer look

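Many synthesis changes had opposite signs at 20 and 60 min: the sign was the same at both times in 20 of the 36 tested genes (5 of the 14 import genes), against 3281 of 5794 genes overall. Among the genes with the 5 largest positive or negative changes in synthesis rate, 4 import genes lay on different sides of wild type at the 2 times; with 1 library per genotype and time the difference was not tested. Timm17b had a log2 change of 1.85 at 20 min and of -0.50 at 60 min (60 minus 20 min: -2.35). Tomm6 had 1.93 and -0.31 (-2.24). Tomm5 went the other way, with -1.61 and 0.49 (2.09), and Tomm70a had -0.65 and 0.14 (0.80).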

How the results depend on the processing

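The count of 14 genes with a changed degradation rate was 2 after centring on library medians, 4 after quantile normalization, 0 at a threshold of 0.01 and 0 with Fmr1-KO rates from 1 solved ratio (chosen after the data were seen), and 0 to 9 with 1 library left out. Labelling time as a replicate block gave 19 genes for degradation, 0 for synthesis and 15 for processing, and the block with centring 14 (7 higher and 7 lower), 0 and 13. The median degradation change (0.83) was -0.0257 after centring, with or without the block, 0.10 with the solved ratio, 0.16 after quantile normalization, 1.36 without low rates, 0.60 with a pseudocount and 0.75 to 1.13 with 1 library left out. The median synthesis change (0.06) was -0.0308 without low rates and -0.0333 to 0.11 with 1 library left out. The median processing change (-0.12) was 0.23 after centring, with or without the block, 0.30 after quantile normalization and -0.44 to -0.0547 with 1 library left out. With the solved ratio the degradation change of Slc25a37 was 0.37 and that of Tomm34 was -0.0718. With 1 library left out the synthesis change ranged from -0.16 to 2.13 in Slc25a18, -0.64 to 0.0802 in Slc25a42, -0.22 to 1.56 in Timm17b, -1.23 to 0.11 in Tomm5 and -0.12 to 1.75 in Tomm6. A tally was made over the genes that passed in a rate or were among its 5 largest rises or falls. In it 398 values kept direction and side of the threshold, 24 gained and 96 lost the call and 7 turned direction. Other genes named here were not in that tally, and some turned direction. Among them were Slc25a5 and Slc25a1, whose degradation changes were each -0.08 with the solved ratio. Leaving out a library had been planned for values only; limma was fitted on the other 3, assuming that the lone library varies like the other genotype. The cause of these shifts was not tested.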
